A study of Mus musculus with 23 samples.

Results

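The cell cycle genes examined here were 39 genes of the cyclin, cyclin-dependent kinase (Cdk), Cdk inhibitor, E2f, Mcm and retinoblastoma families, with the proliferation markers Mki67, Top2a and Pcna. They were chosen by name and make up 39 of the 21938 protein-coding genes compared. For each gene, the peaks of 8 deposited lists were collected within 5 kb of its transcription start site (TSS), taken as the 5′ end of the gene in the GENCODE M21 annotation. The lists came from ChIP-seq of 2 modifications of histone H3 lysine 27 in sorted cells of the mouse embryonic cerebral cortex: acetylation (H3K27ac), a mark of active promoters and enhancers, and trimethylation (H3K27me3), the mark of Polycomb repression. All embryos carried the transgene Tg(Ebf2-EGFP)FB58Gsat, in which Ebf2 regulatory sequence drives the green fluorescent protein EGFP, and no other allele or agent was given in the labels. Cells were separated by fluorescence into Ebf2-EGFP+ cells, taken on embryonic days E11.5, then E13.5 and lastly E15.5, and Ebf2-EGFP- cells, taken at the earliest of these stages. The study describes the Ebf2-EGFP+ cells as mainly preplate neurons at E11.5 and mostly Cajal-Retzius (CR) neurons by E15.5, and the Ebf2-EGFP- cells as mostly neural progenitors, so that a sort by EGFP is a proxy for cell state and not a sort by cell division. The 23 samples were 15 ChIP libraries and 8 input libraries. Each ChIP group held 2 libraries and was represented by 1 peak list, except H3K27ac in Ebf2-EGFP- cells, which had 1 library.

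Cyclins bind and activate Cdks, and the order in which cyclins appear drives the order of the cell cycle. D cyclins with Cdk4 and Cdk6 start the phosphorylation of the retinoblastoma (pocket) proteins Rb1, Rbl1 and Rbl2, which releases E2f factors and turns on the genes of DNA replication, the Mcm helicase among them. E and A cyclins with Cdk2 carry the cell through replication, and B cyclins with Cdk1 through mitosis. Inhibitors of the Cip/Kip and Ink4 families hold these kinases back, and cortical neurons leave the cycle for good when they are born. The comparison asks which of these genes carried H3K27ac or H3K27me3 at their start in the progenitor-rich population and in the Ebf2-EGFP+ neurons. Exit of the sorted cells from the cycle was not measured by these lists.

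There was 1 list per group, with no replicate lists, no read counts and a score of 0 at every peak. Depth was therefore unknown, and no difference between lists was tested. The lists held 1386 (E11.5 Ebf2-EGFP-), 37055 (E11.5 Ebf2-EGFP+), 102881 (E13.5) and 25793 (E15.5) peaks of H3K27ac, and 48963, 6387, 6721 and 1438 peaks of H3K27me3 in the same order. Some lists did not hold what their labels would lead one to look for. Of 20 Polycomb targets that are silent in cortex, such as Hox genes, the list labelled H3K27ac at E13.5 had a peak at all 20, against 11 at E11.5 and 5 at E15.5 (of all genes, 60.9%, 49.9% and 52.3% were marked in these lists). The H3K27me3 lists of Ebf2-EGFP+ cells had a peak at 0, 11 and 2 of these 20 targets by stage. Of all genes, these lists marked 4.92%, 9.31% and 1.06%. Of 20 widely expressed genes, the list labelled H3K27me3 in Ebf2-EGFP- cells had a peak at 11 (55%), near the share of all genes (48.2%), together with 16 of the 20 Polycomb targets (80%), and the H3K27ac list of the same cells had a peak at 3 of the 20 widely expressed genes and at 0 of 10 progenitor genes, where 4.17% of all genes were marked. The same H3K27ac list had a peak at 2 of 8 CR genes (Nhlh2 and Reln) and 1 of 5 meningeal genes (Foxc1). It marked none of the neuronal, interneuron, endothelial, or microglia and blood genes counted below. The H3K27ac lists of Ebf2-EGFP+ cells marked 7, 9 and 6 of the 10 progenitor genes by stage and 7, 7 and 9 of 10 neuronal genes. They marked 7, 8 and 6 of 8 CR genes, 4, 6 and 3 of 7 interneuron genes, 1, 4 and 1 of 6 endothelial genes, 1, 3 and 3 of 6 genes of microglia and blood, and 3, 3 and 1 of 5 meningeal genes. The part of other cells in the results below was not tested.

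The promoters of cell cycle genes hold short elements that the cell cycle machinery reads, and these are shown here for 8 genes picked as examples of 2 kinds of promoter. E2F sites (searched as TTTCCCGC and TTTGGCGC) are bound by E2f factors, while the cell cycle homology region (CHR, searched as TTTGAA) and nearby CCAAT boxes (CCAAT) are typical of genes used late in the cycle. The sequences are the 250 bases before the RefSeq start (GRCm38.p6), written 5′ to 3′ along the gene, and capitals mark these motifs on either strand.
Mcm6, chr1:128359706-128359955, strand -: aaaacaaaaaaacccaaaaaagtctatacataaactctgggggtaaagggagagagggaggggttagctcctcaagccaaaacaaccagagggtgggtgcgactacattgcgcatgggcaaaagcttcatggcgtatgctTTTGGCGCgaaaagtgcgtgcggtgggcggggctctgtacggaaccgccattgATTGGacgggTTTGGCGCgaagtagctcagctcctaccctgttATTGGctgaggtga
Cdk2, chr10:128705052-128705301, strand -: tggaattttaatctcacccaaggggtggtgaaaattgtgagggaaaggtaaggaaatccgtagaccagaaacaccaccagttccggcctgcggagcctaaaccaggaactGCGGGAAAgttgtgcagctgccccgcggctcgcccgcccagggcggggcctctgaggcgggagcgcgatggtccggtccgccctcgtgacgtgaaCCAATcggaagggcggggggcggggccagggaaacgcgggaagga
E2f7, chr10:110745189-110745438, strand +: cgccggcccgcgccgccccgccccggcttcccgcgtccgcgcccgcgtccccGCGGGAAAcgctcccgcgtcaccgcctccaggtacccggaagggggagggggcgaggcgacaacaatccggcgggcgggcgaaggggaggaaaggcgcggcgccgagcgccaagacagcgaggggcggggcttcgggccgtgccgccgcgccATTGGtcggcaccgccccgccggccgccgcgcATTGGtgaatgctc
E2f3, chr13:29986064-29986313, strand -: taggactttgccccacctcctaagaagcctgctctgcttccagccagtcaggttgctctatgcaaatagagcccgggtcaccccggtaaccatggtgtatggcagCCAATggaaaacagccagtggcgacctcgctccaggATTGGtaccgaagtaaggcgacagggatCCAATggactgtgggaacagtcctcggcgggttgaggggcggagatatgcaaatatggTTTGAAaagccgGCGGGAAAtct
Ccnb2, chr9:70421555-70421804, strand -: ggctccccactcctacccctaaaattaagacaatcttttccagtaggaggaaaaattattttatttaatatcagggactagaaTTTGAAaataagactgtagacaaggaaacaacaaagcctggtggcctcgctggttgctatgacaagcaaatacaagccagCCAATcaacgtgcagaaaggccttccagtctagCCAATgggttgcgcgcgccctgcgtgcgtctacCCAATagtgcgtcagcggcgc
Cdk1, chr10:69352913-69353162, strand -: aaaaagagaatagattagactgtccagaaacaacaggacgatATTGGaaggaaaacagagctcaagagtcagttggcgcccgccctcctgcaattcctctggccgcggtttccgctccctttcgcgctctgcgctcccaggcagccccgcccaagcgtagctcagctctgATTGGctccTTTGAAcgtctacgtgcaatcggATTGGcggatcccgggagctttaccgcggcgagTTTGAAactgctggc
Mki67, chr7:135716380-135716629, strand -: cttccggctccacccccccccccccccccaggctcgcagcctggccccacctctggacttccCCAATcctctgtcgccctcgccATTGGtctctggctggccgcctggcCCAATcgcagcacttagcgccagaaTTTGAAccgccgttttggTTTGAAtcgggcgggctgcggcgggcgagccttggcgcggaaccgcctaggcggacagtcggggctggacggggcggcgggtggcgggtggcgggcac
Top2a, chr11:99024190-99024439, strand -: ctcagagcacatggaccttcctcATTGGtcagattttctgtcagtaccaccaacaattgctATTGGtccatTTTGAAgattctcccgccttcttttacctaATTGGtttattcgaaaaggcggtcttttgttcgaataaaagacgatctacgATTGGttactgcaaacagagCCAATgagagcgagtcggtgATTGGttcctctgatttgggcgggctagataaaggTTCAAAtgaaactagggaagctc
Mcm6, which encodes a helicase subunit, held 2 E2F sites, Cdk2 and E2f7 held 1 each, and E2f3 held an E2F site and a CHR. The late genes Ccnb2 (cyclin B2), Cdk1 (the mitotic kinase), Mki67 (the antigen Ki-67) and Top2a (topoisomerase II alpha) each held a CHR and CCAAT boxes and none of the E2F motifs searched.

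Of the 39 members, 30 had a promoter in the RefSeq table, read over 300 bases from 250 before to 50 after the start. An E2F site was found in 9 of the 30 (30%), against 2.18% of all 16521 promoters. These were Cdk2, Cdkn2a, E2f2, E2f3, E2f7, Mcm3, Mcm5, Mcm6 and Mcm7, so 4 of the 5 matched Mcm genes held it. A CHR was found in 9 (30%, against 15.6%): Ccnb2, Cdk1, Cdkn2b, E2f3, E2f8, Mcm2, Mki67, Rbl2 and Top2a. A CCAAT box was found in 18 (60%, against 38.8%), and a CHR with a CCAAT box in 7 (23.3%, against 6.41%). E2f3 was the member that held all 3 kinds of motif. Ccnb1 held CCAAT boxes but no CHR, and Mcm2 held a CHR but no E2F site. Neither an E2F site nor a CHR, as searched, was found in E2f1, Ccne1, Pcna or Rbl1. The RefSeq start used for E2f1 lay 466 bp from its GENCODE start, and the window read lay wholly inside the gene. Of the 38 matched promoters of other cell cycle genes, 15.8% held an E2F site and 28.9% a CHR. Members' promoters were also rich in CpG, with a median ratio of observed to predicted CpG of 0.869 against 0.602 over all promoters and a median GC content of 62.5% against 57%. Cdkn1a stood lowest among the members, at a CpG ratio of 0.0892. A match to these letters is a description of the sequence and no measure of binding.

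**Figure D1:**
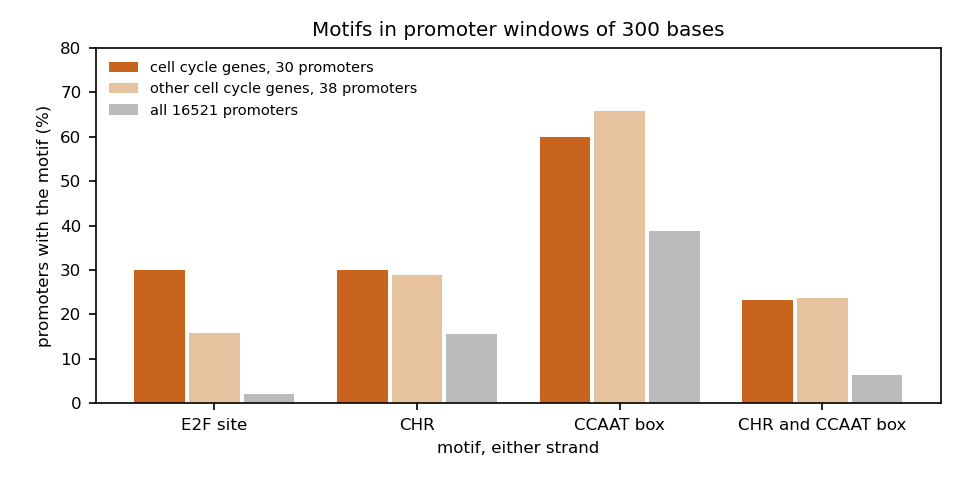
Percentage of promoters (y axis) that hold each motif on either strand of a 300-base window (x axis), for 30 members, 38 other cell cycle genes and all 16521 promoters of the table. The bars for E2F sites differ most in proportion, at 30%, 15.8% and 2.18%.

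H3K27ac was listed near the TSS of most cell cycle genes in each of the 3 lists of Ebf2-EGFP+ cells, and the shares are given beside those of all genes with no test. At E11.5, 27 of 39 (69.2%) had a peak within 5 kb of the TSS, against 49.9% of all 21938 genes. At E13.5 it was 29 (74.4%, against 60.9%), and at E15.5 it was 25 (64.1%, against 52.3%). With the widest 1386 peaks of each list, the share at E13.5 was 0% of members against 1.39% of all genes. In Ebf2-EGFP- cells the H3K27ac list marked 2 members (5.13%, against 4.17%), which were E2f3 and E2f6, each by a peak of 157 bp. The H3K27me3 list of Ebf2-EGFP- cells marked 22 members (56.4%, against 48.2%). The lists of Ebf2-EGFP+ cells marked 1 member at E11.5 (2.56%, against 4.92%), 4 at E13.5 (10.3%, against 9.31%) and 2 at E15.5 (5.13%, against 1.06%). The count of members with H3K27ac was lowest in the shortest list and highest in the longest, and H3K27me3 was listed at most members in its longest list. The depth behind these lengths was unknown, so depth and cell state cannot be told apart.

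**Figure D2:**
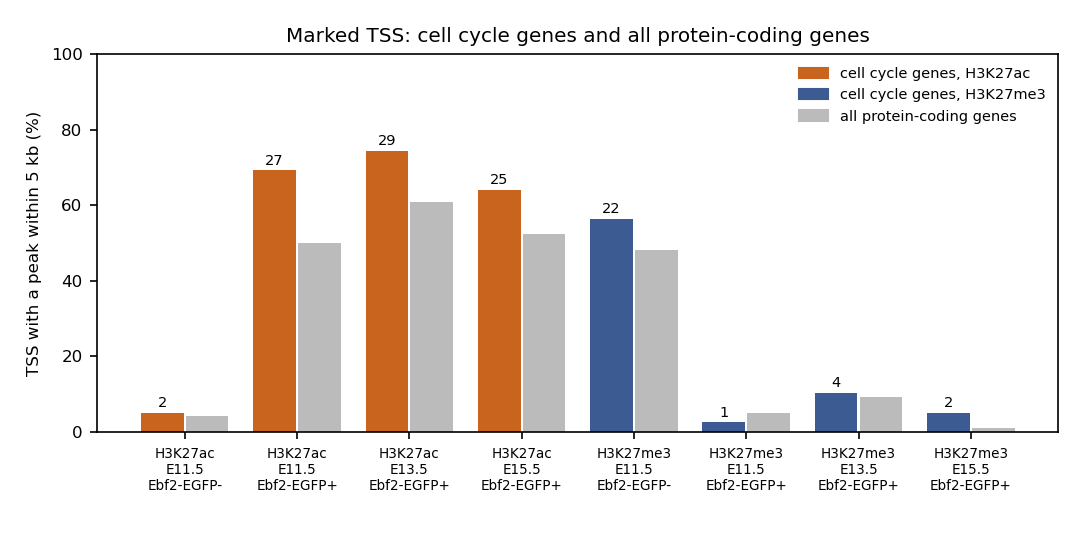
Percentage of TSS with a peak within 5 kb (y axis) in each of the 8 lists (x axis), for the 39 cell cycle genes (coloured bars, number of genes above) and all 21938 protein-coding genes (grey bars). The coloured bar is higher than the grey bar in every list but H3K27me3 of E11.5 Ebf2-EGFP+ cells, where 1 gene was marked. The bars lie close for H3K27ac of Ebf2-EGFP- cells (5.13% against 4.17%) and H3K27me3 at E13.5 (10.3% against 9.31%). No difference was tested.

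In the 3 neuronal H3K27ac lists, 17 members were marked throughout (43.6%, against 33.1% of all genes). They were Ccnd2, Ccnd3, Ccne2, Cdk4, Cdkn1b, Cdkn1c, Cdkn2b, Cdkn2d, E2f1, E2f3, E2f4, E2f7, Mcm2, Mcm4, Mcm6, Mcm7 and Rb1. Among them, Ccnd3, Cdk4, Cdkn2d, E2f4, Mcm2, Mcm4 and Mcm7 have another protein-coding TSS within 5 kb. Peaks near these genes cannot be told apart from those of their neighbours, so the higher share of members may rest on them. A set of 3 members, Cdk1, Cdk2 and Mcm3, was marked in none (7.69%, against 25.6%). Ccne1, Cdk6, Cdkn1a, E2f2 and Mki67 were listed at E11.5 and E13.5 but not at E15.5, and Ccnb2 at E11.5 alone. Ccnb1, Ccnd1, Cdkn2a, Cdkn2c and E2f8 were listed at E13.5 alone, the stage whose list was longest and also held the silent Polycomb targets. E2f5, E2f6, Pcna and Rbl1 were listed at E11.5 and E15.5 but not at E13.5. Mcm5 and Top2a appeared at E13.5 and E15.5, and Ccna2 and Rbl2 at E15.5 alone. A TSS marked at 1 stage and at the next did not always have its peak in the same place. Of 27 members marked at E11.5, 22 were marked at E13.5 (81.5%, against 81.2%), and in 14 of these 22 the peaks overlapped (63.6%, against 71.8%). Of 29 marked at E13.5, 19 were marked at E15.5 (65.5%, against 67.7%), and in 13 of these 19 the peaks overlapped (68.4%, against 77.9%). Leaving the E13.5 list aside, 21 of the 27 members marked at E11.5 were also marked at E15.5 (77.8%, against 80.2%). Of the 12 members unmarked at E11.5, Ccna2, Mcm5, Rbl2 and Top2a were marked at E15.5 (33.3%, against 24.4%).

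**Figure D3:**
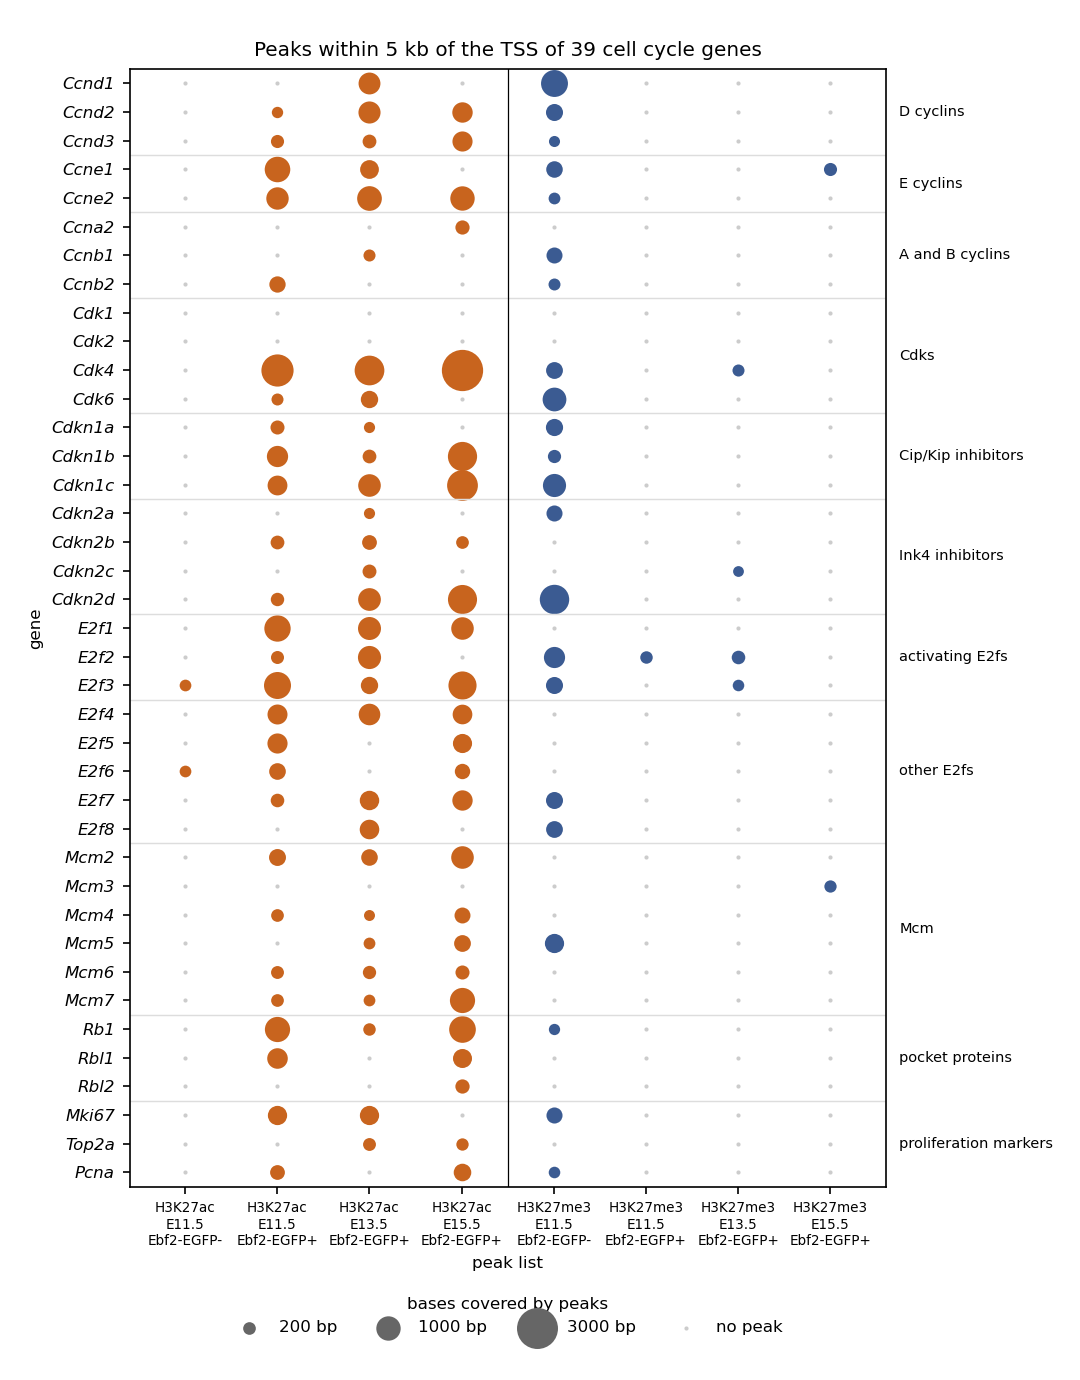
The 39 cell cycle genes (y axis, grouped by family) in the 8 peak lists (x axis), with the area of each circle growing with the number of bases covered by peaks within 5 kb of the TSS, and a grey dot where no peak was listed. H3K27ac circles fill most rows of the 3 Ebf2-EGFP+ columns, H3K27me3 circles lie mostly in the Ebf2-EGFP- column, and the rows of Cdk1 and Cdk2 are empty.

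The D cyclins, which couple growth signals to the cycle, differed among themselves. Ccnd1 (chr7, minus strand, TSS at 144939925 on mm10) had no H3K27ac peak at E11.5 or E15.5 and 3 peaks at E13.5, the widest of 522 bp at 1249 bp upstream. In Ebf2-EGFP- cells it had 5 peaks of H3K27me3, more than 1 kb of sequence in all (1239 bp). Ccnd2 had 1 H3K27ac peak of 142 bp at E11.5, 2263 bp inside the gene, 4 peaks at E13.5, and 2 in the last list, of which the wider (436 bp) covered the TSS. Ccnd3 was marked at all 3 stages by peaks away from its TSS, at 2764 bp upstream at E11.5, at 1656 and 2584 bp downstream at E13.5, and on both sides at E15.5, and the TSS of Taf8 lies 2759 bp from its own. Of the D cyclins, Ccnd2 was the only one with an H3K27ac peak over its TSS, at E15.5.

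E cyclins bring the cell into replication. Ccne1 and Ccne2 were alike at E11.5, with H3K27ac peaks of 778 bp and 390 bp over the TSS. At E13.5 Ccne1 had peaks of 373 and 180 bp on either side of its TSS and Ccne2 had 3 peaks, of 247 bp over the TSS and 409 and 372 bp beside it. At E15.5 they parted, for Ccne2 kept a peak of 735 bp over its TSS while Ccne1 had no H3K27ac peak and was 1 of the 2 members listed with H3K27me3, by a peak of 220 bp at 712 bp upstream. Ccne1 is thus the member that was listed with acetylation in early neurons and with H3K27me3 in the latest ones, although no read counts stood behind either call. The H3K27me3 list of E15.5 also had a peak at only 2 of the 20 silent Polycomb targets. The A and B cyclins, which serve replication and mitosis, were each listed with H3K27ac at 1 stage, as was Ccnd1. Ccna2 had 1 peak of H3K27ac, of 276 bp over the TSS at E15.5, Ccnb1 had 1 of 172 bp over the TSS at E13.5, and Ccnb2 had 1 of 394 bp over the TSS at E11.5. H3K27me3 peaks of 377 and 168 bp lay over the TSS of Ccnb1 and Ccnb2 in Ebf2-EGFP- cells.

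Among the kinases, Cdk4 was the most widely marked. It had H3K27ac at all 3 stages, in 3, 5 and 2 peaks, and those of E15.5 measured 1601 and 1442 bp, the second over the TSS. The first of these lay 2739 bp upstream, and another protein-coding TSS, that of March9, lies 3350 bp from that of Cdk4. Cdk6, the other partner of D cyclins, had H3K27ac peaks of 170 and 459 bp at E11.5 and E13.5 and none at E15.5. Both began nearly 2.8 kb inside the gene as annotated (2788 and 2791 bp), over the start of a shorter Cdk6 transcript at position 3344312 of chromosome 5. Cdk1 and Cdk2, the kinases of mitosis and of replication, had no peak of either mark in any list, as did 22.7% of all genes. The nearest H3K27ac peaks to the Cdk1 TSS were 65809, 7487 and 105723 bp away by stage. For Cdk2 they lay 8828, 8722 and 8585 bp downstream, past the end of the gene. When every annotated start of a gene was counted, Cdk1 was also marked at E13.5, in both lists of that stage.

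The inhibitors of the Cip/Kip family bind cyclin-Cdk complexes, and Cdkn1b (p27) and Cdkn1c (p57) are known for cell cycle exit in the cortex. Both were marked by H3K27ac at all 3 stages, and their coverage was highest at E15.5. The median coverage over all marked genes was highest at E15.5 too, at 419, 369 and 655 bp by stage. Cdkn1b had peaks of 454 and 281 bp beside the TSS at E11.5, a peak of 253 bp at 4646 bp upstream at E13.5, and 1 peak of 1475 bp over the TSS at E15.5. At Cdkn1c, the widest peak measured 402 bp at E11.5, 373 bp at E13.5 and 1048 bp at E15.5. Cdkn1a (p21), a target of p53 that acts on cell damage, had 1 peak of 267 bp at E11.5, 1 of 134 bp at E13.5 and none at E15.5, where it was marked only when every annotated start was counted. By RNA, the study places Cdkn1a among the genes enriched in Ebf2-EGFP+ cells at all 3 stages. It also names Cdkn1a as a gene known to be expressed in CR neurons. An unlisted peak at E15.5 is thus no measure of its expression. The E11.5 peak lay in an intron, 3425 bp inside the longest form of the gene and 620 bp from the start of a shorter form. Cdkn1b, Cdkn1c and Cdkn1a all had H3K27me3 in Ebf2-EGFP- cells, in 1, 3 and 2 peaks.

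Ink4 inhibitors block Cdk4 and Cdk6. Cdkn2d (p19Ink4d) had the largest coverage of this family, with H3K27ac at all 3 stages, a widest peak of 815 bp at E15.5, and 5 H3K27me3 peaks in Ebf2-EGFP- cells (1500 bp in all). Cdkn2b (p15) was marked by 1 H3K27ac peak of 254, 307 and 202 bp by stage, each within about 100 bp of the TSS (11, 101 and 95 bp), and by no H3K27me3. Cdkn2a, which encodes p16 and p19Arf, had 1 H3K27ac peak of 133 bp at E13.5, with H3K27me3 over its TSS in Ebf2-EGFP- cells (218 bp). Cdkn2c (p18) had 1 peak of each mark at E13.5, 261 bp of H3K27ac and 119 bp of H3K27me3, and none in any other list. Of the 4 genes, Cdkn2b and Cdkn2d were thus listed with H3K27ac at every stage and Cdkn2a and Cdkn2c at E13.5 alone.

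E2f1, E2f2 and E2f3 activate the genes of replication. E2f1 had H3K27ac peaks of 1183 and 840 bp over its TSS at E11.5 and E15.5 and 4 smaller ones at E13.5, the widest of 360 bp, and no H3K27me3 in any list. E2f3 was the 1 member with both marks in Ebf2-EGFP- cells (2.56%, against 3.42% of all genes), by peaks of 157 and 440 bp that overlap inside the gene. The study reports both marks at most of the TSS it detected in these cells, far above the share of all genes in the deposited lists. The widest H3K27ac peak of E2f3 in neurons measured 860, 170 and 1151 bp by stage. E2f2 was the member most often listed with H3K27me3, in Ebf2-EGFP- cells (579 bp, 107 bp inside the gene) and in Ebf2-EGFP+ cells at E11.5 (191 bp) and E13.5 (243 bp). Its H3K27ac peaks measured 216 bp at E11.5, 3939 bp inside the gene, and 251, 511 and 128 bp at E13.5, of which that of 511 bp lay 90 bp inside. At E15.5 it had no peak of either mark within 5 kb of its 5′ end, and H3K27ac was listed there when every annotated start was counted.

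The other E2f factors are mostly repressors. E2f4 and E2f5, which work with the pocket proteins, had peaks over the TSS at E11.5 (207 and 651 bp) and E15.5 (618 and 580 bp), and E2f5 had none at E13.5. E2f6, a partner of Polycomb complexes, was marked at E11.5 by 416 bp over the TSS, at E15.5 by 339 bp, and in Ebf2-EGFP- cells by 157 bp. Of the atypical repressors, E2f7 was marked at all 3 stages, with 666 bp over the TSS at E15.5, and E2f8 at E13.5 alone, in 3 peaks of 274, 126 and 210 bp. Both had H3K27me3 in Ebf2-EGFP- cells (437 and 423 bp). Rb1, the retinoblastoma gene, had wide peaks over its TSS at E11.5 (1076 bp) and E15.5 (1215 bp) and a narrow one of 191 bp upstream at E13.5. Rbl1 (p107) followed the same stages, with 683 bp at E11.5 and peaks of 371 and 200 bp at E15.5, and none at E13.5. Rbl2 (p130), the pocket protein known from cells at rest, had 1 peak of 279 bp, at E15.5, and with any annotated start it was marked at all 3 stages.

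Mcm2 to Mcm7 encode the 6 subunits of the replicative helicase. Mcm2, Mcm4, Mcm6 and Mcm7 had H3K27ac in all 3 neuronal lists, Mcm5 at E13.5 (160 bp, 578 bp inside the gene) and E15.5, and Mcm3 in none. Their peaks were mostly narrow. At E15.5 the widest measured 497 bp at Mcm2, 373 bp at Mcm4, 222 bp at Mcm5, 268 bp at Mcm6 and 714 bp at Mcm7. Only Mcm6 was marked at or beside its TSS at every stage, within 101 bp. At E13.5 the peaks of Mcm2, Mcm4 and Mcm7 lay 3605, 2757 and 4243 bp upstream, and each of these 3 genes has another protein-coding TSS within 5 kb (Tpra1, Prkdc at 466 bp and Ap4m1 at 420 bp). Mcm5 was the 1 Mcm gene with H3K27me3 in Ebf2-EGFP- cells, by a peak of 328 bp over its TSS and another upstream. Mcm3 had 1 peak in the 8 lists, of H3K27me3 at E15.5 (182 bp, 2990 bp inside the gene, in an intron).

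The markers used to stain dividing cells did not share a pattern. Mki67 (chr7, minus strand, TSS at 135716361 on mm10) had H3K27ac over its TSS at E11.5 (588 bp) and E13.5 (406 bp) and no peak of either mark at E15.5, and in Ebf2-EGFP- cells a H3K27me3 peak of 380 bp covered the same TSS. Top2a had H3K27ac at E13.5 (210 bp, 1872 bp upstream) and over its TSS at E15.5 (184 bp), and no H3K27me3. Pcna, the sliding clamp of DNA polymerase, which also serves DNA repair, was marked at E11.5 (307 bp) and E15.5 (473 bp) and had 151 bp of H3K27me3 in Ebf2-EGFP- cells.

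**Figure D4:**
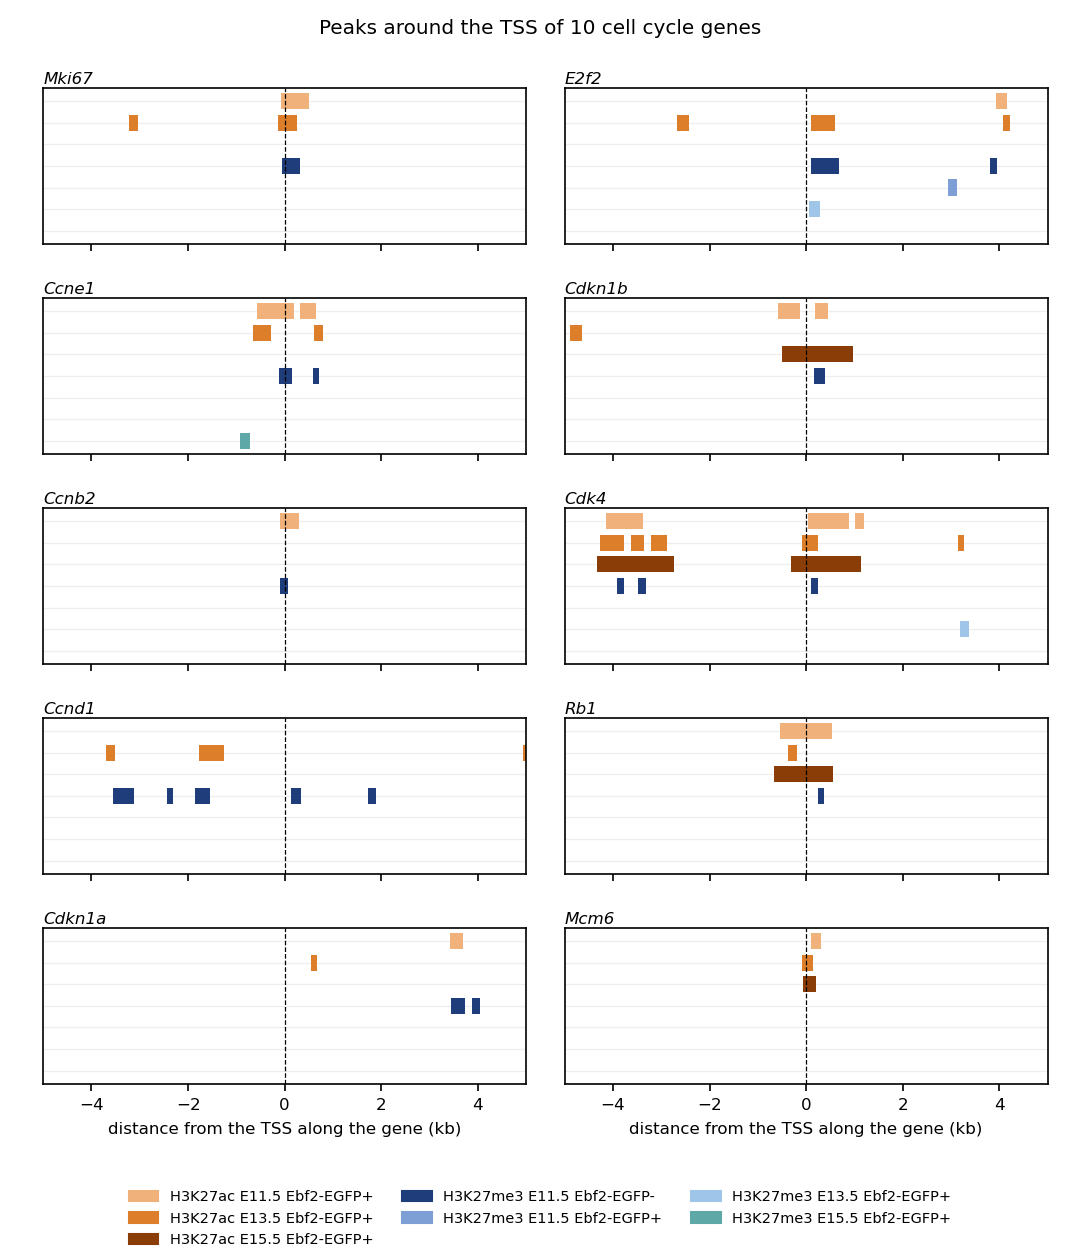
Peaks of 7 lists (rows within each panel, colours as in the key) around the TSS of 10 cell cycle genes, against distance from the TSS along the gene in kb. Mki67, Ccne1, Ccnb2, Cdkn1a and E2f2 have H3K27ac at E11.5 and none at E15.5, Cdkn1b, Cdk4 and Rb1 have their widest peaks at E15.5, and at most of these genes the H3K27me3 peak of Ebf2-EGFP- cells lies on or next to a neuronal H3K27ac peak. Over all marked genes the widest H3K27ac peak was also largest at E15.5, with medians of 342, 255 and 582 bp by stage.

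The 22 members with H3K27me3 in Ebf2-EGFP- cells were Ccnb1, Ccnb2, Ccnd1, Ccnd2, Ccnd3, Ccne1, Ccne2, Cdk4, Cdk6, Cdkn1a, Cdkn1b, Cdkn1c, Cdkn2a, Cdkn2d, E2f2, E2f3, E2f7, E2f8, Mcm5, Mki67, Pcna and Rb1. All 3 D cyclins, both E cyclins, all 3 Cip/Kip inhibitors, 1 of 6 Mcm genes and 1 of 3 pocket proteins were among them. With 48.2% of all genes in this list, counts in families of so few genes are a description only. In Ebf2-EGFP+ cells, both marks were listed at E2f2 at E11.5 (2.56%, against 3.56% of all genes) and at Cdk4, Cdkn2c, E2f2 and E2f3 at E13.5 (10.3%, against 8.39%). At E15.5 they were listed together at no member, against 0.752% of all genes.

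The H3K27me3 list of Ebf2-EGFP- cells divided the members by what was listed later. Of the 22 members with this H3K27me3, 17 were acetylated in E11.5 neurons (77.3%, against 72.3% of all genes with it), 20 at E13.5 (90.9%, against 82.2%) and 12 at E15.5 (54.5%, against 73%). Of the 17 members without it, 10 had H3K27ac at E11.5 (58.8%, against 29.1%), 9 at E13.5 (52.9%, against 41.2%) and 13 at E15.5 (76.5%, against 33%). At E15.5, with the 5′ end of each gene as its TSS, the order of the groups was thus the opposite of that over all genes. The members with this H3K27me3 and no H3K27ac at E15.5 were Ccnb1, Ccnb2, Ccnd1, Ccne1, Cdk6, Cdkn1a, Cdkn2a, E2f2, E2f8 and Mki67. Seen from the later lists, 10 members had H3K27ac at E13.5 and none at E15.5, and 9 of them (all but Cdkn2c) had the H3K27me3 peak, or 90% against 49.3% of all such genes. Of the 19 members with H3K27ac at both stages, 11 had it (57.9%, against 72.4%). With the E13.5 list left aside, all 6 members with H3K27ac at E11.5 and none at E15.5 had it (Ccnb2, Ccne1, Cdk6, Cdkn1a, E2f2 and Mki67), against 57.5% of all such genes. When every annotated start was counted, Cdkn1a and E2f2 were marked by H3K27ac at E15.5 and left both groups that had lost it by then. Cdk1, without this H3K27me3, joined the group with H3K27ac at E13.5, and Cdkn2a the group with H3K27ac at E11.5. E2f4 and Mcm7, both with H3K27ac at E15.5, joined the members with this H3K27me3. Under that setting, 24 members had this H3K27me3 and 27 had H3K27ac at E15.5. The gap at E15.5 between members with and without this H3K27me3 therefore narrowed, and its size rests on how the start of a few genes is chosen. This division was noticed in the values themselves and rests on few genes, and the list labelled H3K27me3 also held widely expressed genes, as given above.

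**Figure D5:**
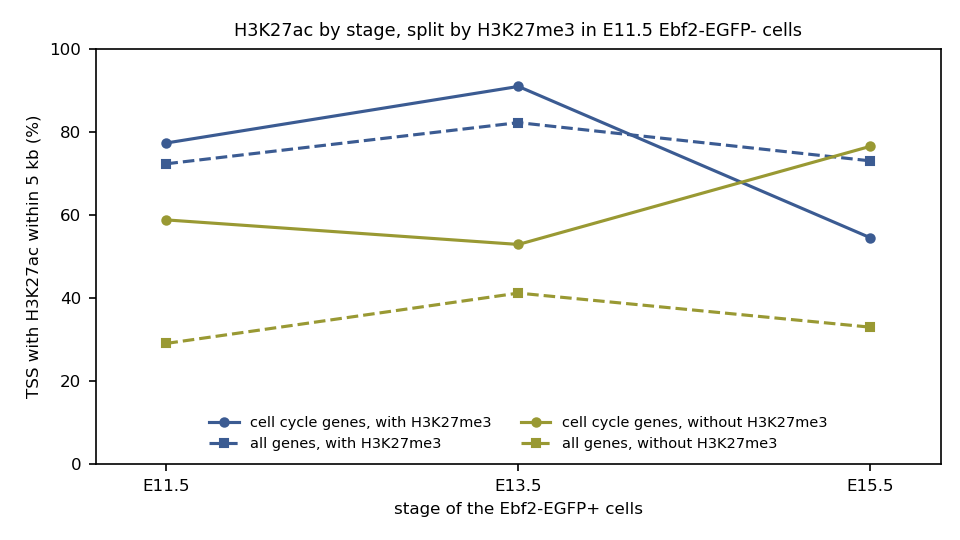
Percentage of TSS with H3K27ac in Ebf2-EGFP+ cells (y axis) by stage (x axis), for TSS with and without H3K27me3 in E11.5 Ebf2-EGFP- cells, in cell cycle genes (solid lines, 22 and 17 genes) and all genes (dashed lines). The solid lines cross between E13.5 and E15.5, ending at 54.5% and 76.5%, while the dashed lines stay apart, ending at 73% and 33%. The gap between the solid lines at E15.5 is narrower when every annotated start is counted (not drawn).

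The marks of progenitor-rich cells and of neurons often lay on the same bases. Of 17 members with H3K27me3 in Ebf2-EGFP- cells and H3K27ac at E11.5, 15 had peaks that overlapped (88.2%, against 75.1% of all such genes). At E13.5 this was 15 of 20 (75%, against 67.8%) and at E15.5 it was 11 of 12 (91.7%, against 81%). Bases shared by such a pair are shown for Cdkn1a and Ccnd1, where the peak centres lay outside the exons of the gene. At Cdkn1a the peaks of E11.5 measured 267 and 290 bp, and at Ccnd1 the H3K27ac peak is that of E13.5. Sequences are from GRCm38.p6, written along the gene, with capitals marking the same motifs as above.
Cdkn1a intron, chr17:29094415-29094667, strand +: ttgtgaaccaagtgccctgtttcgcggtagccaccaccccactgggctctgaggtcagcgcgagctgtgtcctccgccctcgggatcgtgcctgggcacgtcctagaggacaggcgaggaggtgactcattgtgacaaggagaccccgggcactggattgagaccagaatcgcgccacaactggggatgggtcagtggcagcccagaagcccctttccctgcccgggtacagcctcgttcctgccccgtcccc
Ccnd1 upstream, chr7:144941472-144941695, strand -: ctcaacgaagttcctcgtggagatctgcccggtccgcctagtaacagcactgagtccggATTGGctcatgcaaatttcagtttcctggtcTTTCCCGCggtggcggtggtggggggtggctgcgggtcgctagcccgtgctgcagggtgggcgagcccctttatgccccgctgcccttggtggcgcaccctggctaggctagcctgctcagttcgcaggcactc
The Cdkn1a bases, 253 in all, held none of the motifs, while the 224 bases of Ccnd1 held an E2F site and a CCAAT box.

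The width and place of members' peaks are given beside those of all marked genes. In marked members, the median number of bases covered by H3K27ac peaks was 416, 457 and 650 by stage, against 419, 369 and 655 over all marked genes, and that of H3K27me3 in Ebf2-EGFP- cells was 425 against 307. The median distance of the nearest peak to the TSS was 37 bp against 95 bp for H3K27ac at E11.5, 243 against 212 bp at E13.5, and 84 against 181 bp for H3K27me3 in Ebf2-EGFP- cells, and at E15.5 both medians were 0. A peak covered the TSS itself in 11 members at E11.5 (40.7% of the marked, against 30.1%), 6 at E13.5 (20.7%, against 23%) and 14 at E15.5 (56%, against 52.6%). For H3K27me3 in Ebf2-EGFP- cells it did so in 8 (36.4%, against 24.3%). Of the 3 neuronal H3K27ac lists, the longest, that of E13.5, thus had the smallest share of members marked on the TSS. Closest to the 5 kb limit, Cdkn1b counted as marked at E13.5 by a peak at 4646 bp and Mcm7 by a peak at 4243 bp. Just outside it, Ccnd1 had H3K27me3 at 5771 bp at E13.5, and E2f1 and Rbl2 had H3K27me3 at 5854 and 6236 bp in Ebf2-EGFP- cells. Another protein-coding TSS lay within 5 kb of 8 members (Ccnd3, Cdk2, Cdk4, Cdkn2d, E2f4, Mcm2, Mcm4 and Mcm7). Cdk2 had no peak, and peaks near the other 7 cannot be told apart from those of their neighbours.

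Further genes of the same machinery were read in the same way. Of 17 genes of licensing and replication, which include the origin complex and Cdc6, H3K27ac was listed at 7, 10 and 14 by stage, among them Cdt1, Fen1, Gins1, Gmnn and Orc6 at all 3 stages. Of 16 genes of mitosis, H3K27ac was listed at 4, 7 and 9, and Cdc25a and Nusap1 were in all 3 lists. Cdc20, which activates the anaphase complex, was in the E11.5 and E13.5 lists alone. Of 9 genes of the DREAM complex and E2f partners it was listed at 7, 9 and 7, and of 5 checkpoint kinases at 3, 4 and 5. In percent, these were 41.2%, 58.8% and 82.4% of the genes of replication and 25%, 43.8% and 56.2% of those of mitosis, beside 49.9%, 60.9% and 52.3% of all genes. Both groups were below the share of all genes in the E11.5 and E13.5 lists and above it at E15.5. Replication genes at E13.5 and mitosis genes at E15.5 lay near that share, where a single gene more or less would reverse the order. H3K27me3 in Ebf2-EGFP- cells was listed at 12 of the 17 genes of replication, 6 of the 16 of mitosis, 4 of the 9 partners and 2 of the 5 kinases, beside 48.2% of all genes.

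The motifs shown at the start were also set against the marks. Of the 9 members with an E2F site, 5, 7 and 5 had H3K27ac by stage, and of the 21 without, 15, 15 and 12. Over all promoters with an E2F site the shares were 62.2%, 70.8% and 75.3%, against 50.7%, 61.4% and 53.7% of all promoters of the table. Of the 9 members with a CHR, 5, 6 and 5 had H3K27ac by stage, and of the 21 without, 15, 16 and 12. All promoters with a CHR were marked less often, at 34.2%, 44.9% and 37.1%. With 9 genes on a side, 1 gene moves such a share by over 10 percentage points. Cdk1 and Mki67, whose promoters are alike in holding 2 CHR and 3 CCAAT boxes, differed fully in their marks, with no peak at Cdk1 and peaks in 3 lists at Mki67.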

How the data were processed

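ChIP-seq of H3K27ac and H3K27me3 in sorted cortical cells was taken from 8 deposited peak lists, 1 per mark and cell group, in which 15 ChIP and 8 input libraries are represented. Reads were aligned by the authors to mm10 with Bowtie 1.1.2 on Galaxy, with up to 3 mismatches, and MACS was run with a p of 1e-05, per the study's methods and processing notes. The version of MACS, the use of input and the pooling of replicates are not given in the sources used here. The score deposited by the authors was 0 for every peak, so no peak height was used. Peak ends fit the 22 chromosomes of GRCm38.

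TSS of 21938 protein-coding genes came from GENCODE M21, and a TSS was marked when a peak lay within 5 kb. Peaks overlapped when they shared at least 1 bp. Promoters and genome sequence came from RefSeq (GRCm38.p6), each gene taking the entry nearest its GENCODE start, within 100 bp for 23 of the 30 matched members. Python 3.11.15, pandas 2.3.3, numpy 2.4.6 and matplotlib 3.10.9 were used, and the functions were tested on simulated peaks. All 39 members were named, and peaks were described for those marked by H3K27ac in some of the 3 Ebf2-EGFP+ lists and for Mki67, Top2a, Pcna, Ccnd1, Ccnd2, Cdk1, Cdkn1a, Cdkn1b and Cdkn1c. Peaks of other members were given as examples of their families. Members, gene lists and motifs were chosen with earlier results of these data known. Alternatives were a window of 1 kb, any annotated start, a minimum peak width of 300 bp, equal numbers of the widest peaks and, chosen after seeing the data, leaving out members with another TSS within 5 kb. Depth is unknown, and nothing was tested.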

Additional observations from a re-analysis of the deposited data

How the results depend on the processing

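With any annotated transcript start, the counts of marked members were within 1.5 times those given in all 8 lists, and also, in an alternative chosen after seeing the data, for the 31 members without another TSS within 5 kb. A window of 1 kb gave 1 member for H3K27ac in Ebf2-EGFP- cells and, for H3K27me3 in Ebf2-EGFP+ cells, 0, 2 and 1 by stage, with the other 4 lists within 1.5 times (21, 21 and 23 members by stage for H3K27ac in Ebf2-EGFP+ cells, and 20 for H3K27me3 in Ebf2-EGFP- cells). Of all genes, that window marked 3.63% for H3K27ac in Ebf2-EGFP- cells and 40.6%, 44.5% and 46% by stage in Ebf2-EGFP+ cells. For H3K27me3 it marked 36.2% in Ebf2-EGFP- cells and 1.89%, 5.34% and 0.451% by stage in Ebf2-EGFP+ cells. With peaks of at least 300 bp, H3K27ac was listed at 0 members in Ebf2-EGFP- cells, 16 at E11.5 and 13 at E13.5, and H3K27me3 at 11 in Ebf2-EGFP- cells and at 0, 0 and 0 by stage in Ebf2-EGFP+ cells, while H3K27ac at E15.5 was listed at 19. The shares of all genes were 1.21% for H3K27ac in Ebf2-EGFP- cells and 28.9%, 23% and 42.6% by stage in Ebf2-EGFP+ cells. For H3K27me3 they were 16.8% in Ebf2-EGFP- cells and 0.242%, 0.62% and 0.128% by stage in Ebf2-EGFP+ cells. With the widest 1386 peaks of each H3K27ac list and 1438 of each H3K27me3 list, H3K27ac was listed at 5, 0 and 4 members by stage in Ebf2-EGFP+ cells, and H3K27me3 at 1 in Ebf2-EGFP- cells, 0 at E11.5 and 1 at E13.5. All genes then stood at 6.25%, 1.39% and 6.87% by stage for H3K27ac in Ebf2-EGFP+ cells. For H3K27me3 they stood at 2.98% in Ebf2-EGFP- cells, 1.34% at E11.5 and 2.68% at E13.5. The order of the H3K27ac stages therefore depended on both the window and the peaks used, and fewer peaks gave fewer marked members by construction.

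No paired analysis was possible because each group had 1 peak list and no test was made. Leaving out replicates could not be run for the same reason. An unlisted peak is not an absent mark, since depth and signal are unknown.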
